A study of Mus musculus with 6 samples.

Results

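The casein and enamel-type phosphoprotein genes examined here are 8 of the 20793 single genes measured on the array: the caseins Csn1s1, Csn2, Csn1s2a and Csn3, and the tooth-surface and enamel matrix genes Odam, Amtn, Ambn and Enam. They were taken by gene symbol from the deposited table of all genes, where each was found on 1 transcript cluster (a set of probes that the array design reads as a unit). The group was chosen by symbol, but selected on the known difference of Csn1s1 between these same arrays, so the differences of the 8 are given as a description, without a test. RNA came from whole, intact digit tips of mice 8 weeks old and was hybridised to 6 Affymetrix whole-transcript arrays. The 3 control arrays are labelled wildtype, and the 3 others K14-CreER;Ctnnb1 cKO, called cKO below. Ctnnb1 encodes beta-catenin, and K14-CreER is an inducible Cre recombinase under the keratin 14 promoter, which is active in basal epithelium. The labels name no inducer, no time of deletion and no Cre in the controls, and they call the samples biological replicates without saying whether animals were separate or pooled. The p-values below measure only the spread among these 6 samples, which may be technical. The sampled tissue includes skin, bone, vasculature and glands, and in it more cells of a type and more RNA per cell cannot be told apart.

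Caseins are the main proteins of milk. The calcium-sensitive caseins carry clusters of phosphorylated serine that bind calcium phosphate, and kappa-casein caps the resulting micelle. In mammary epithelium, prolactin acting through the receptor, Jak2 and Stat5, together with glucocorticoid, is the known inducer of casein transcription. Enamelin and ameloblastin are matrix proteins of forming enamel, while amelotin and Odam are secreted by late ameloblasts and by the epithelium that attaches gum to tooth. All these genes belong to the secretory calcium-binding phosphoprotein (SCPP) family, which arose by local gene duplication and also holds the bone matrix genes Spp1, Ibsp, Dmp1 and Mepe.

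The deposited log2 signals are expressed relative to each cluster's median over the controls. That median is therefore 0 for each gene, and neither a level nor detection can be read, so a flat gene may be unexpressed or steadily expressed. For this reason the tissue label could not be checked against marker levels. Ctnnb1 itself had values of 0, -0.19 and 0.59 in control tissue against -1.10, -0.87 and -1.06 in cKO tissue. It fell by 1.14 ± 0.24 (limma SE), with an adjusted p of 0.0284. The call was lost on leaving out any of 4 single arrays: the adjusted p became 0.0795 without control replicate 1 and 0.138 without control replicate 3, and 0.0944 and 0.148 without cKO replicates 1 and 3. The medians of the 6 arrays over all clusters lay between -0.0086 and 0.0779.

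The 8 genes lie in 1 stretch of chromosome 5 (chromosome from the RefSeq table of GRCm38.p6, positions from the deposited annotation on build mm9). From the start of Csn1s1 at 88095233 to the end of Enam at 88933755 the stretch measures 838523 bases. Csn1s1 and Csn2 (88121649 to 88128446) are separated by 10045 bases and are transcribed towards each other: Csn2 is the 1 member on the minus strand and the other 7 are on the plus strand. Csn1s2a (88203592 to 88217822), Odam (88314747 to 88323197) and Csn3 (88354632 to 88361570) follow. After a gap of 443562 bases come Amtn (88805133 to 88814941), Ambn (88885016 to 88898004) and Enam (starting at 88917000).

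Among these neighbours Csn1s1 differed and the other 7 showed no comparable difference. Csn1s1, alpha-s1-casein, which starts at 88095233 and ends at 88111603, had log2 values of 0, -0.42 and 0.28 in control tissue against 4.90, 3.57 and 4.98 in cKO tissue. The groups did not overlap, with 3.29 log2 units between the lowest cKO and the highest control value. The lowest of the cKO arrays was replicate 2. The difference was 4.53 ± 0.34 (limma SE, 3 arrays per group), a ratio of geometric means of 23.2 with a 95% interval of 13.8 to 38.8. By size of difference Csn1s1 stood at place 9 from the top among the 20793 genes. In the authors' deposited table its signed fold change was 23.2, and it was the only member among the 1755 clusters of their list of at least 1.5-fold changes and the 681 of their significant list.

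**Figure D1:**
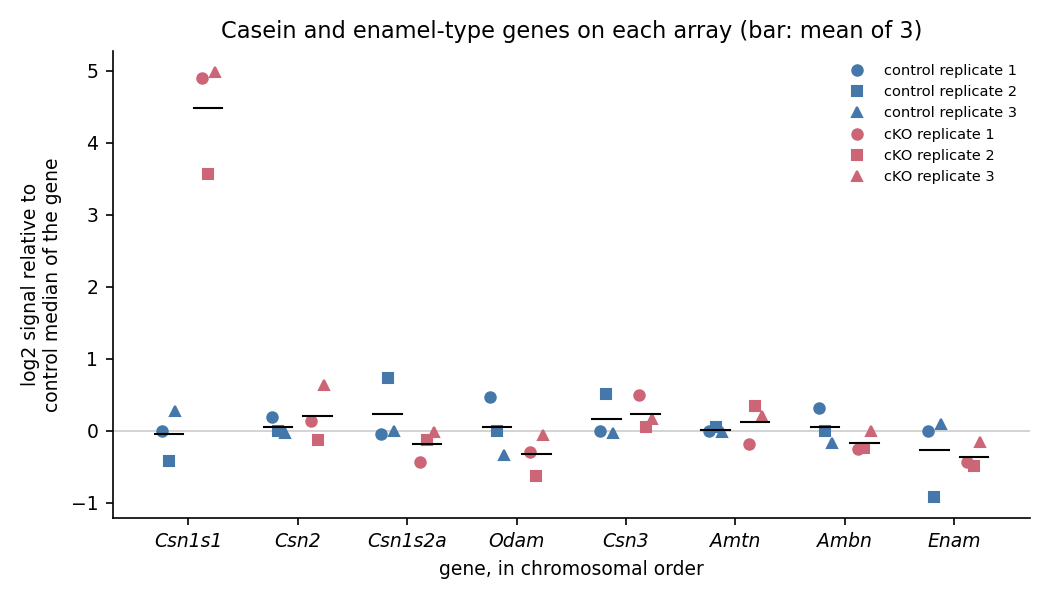
Control-centred log2 signal of each gene (vertical axis) for the 8 casein and enamel-type genes in chromosomal order, with 1 point per array, blue for control and red for cKO, and a bar at the mean of 3 arrays. Csn1s1 lies between 3.57 and 4.98 on the cKO arrays, while the other 7 genes stay between -0.92 and 0.73 on all 6 arrays.

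Csn2, beta-casein and the nearest member to Csn1s1 on the chromosome, had values of 0.20, 0 and -0.04 in control tissue against 0.14, -0.14 and 0.63 in cKO tissue. The groups overlapped, and the highest value, on cKO replicate 3, was the only one above 0.20. The difference was 0.16 ± 0.24 with a 95% interval of -0.36 to 0.67, so the upper bound corresponds to a ratio of 1.59.

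Csn1s2a, an alpha-s2-type casein, had values of -0.04, 0.73 and 0 in control tissue against -0.43, -0.13 and -0.01 in cKO tissue. Control replicate 2 was the high value, and the groups overlapped by a narrow margin. Its difference of -0.42 ± 0.25 (95% interval -0.97 to 0.13) was the most negative of the 8.

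Csn3, kappa-casein, had values of 0, 0.51 and -0.03 in control tissue against 0.49, 0.06 and 0.16 in cKO tissue. Here 1 array of each group was high, and the difference was 0.07 ± 0.23 (-0.43 to 0.58). Over these 3 caseins, which form milk micelles together with alpha-s1-casein, the highest upper bound of the difference was 0.67. The 4.53 of Csn1s1, on which the group was selected, lay far above it.

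Of the tooth genes, Odam had values of 0.47, 0 and -0.33 in control tissue against -0.30, -0.62 and -0.06 in cKO tissue. The groups overlapped, with a difference of -0.37 ± 0.25 (-0.92 to 0.18). Amtn, amelotin, had values of 0, 0.05 and -0.03 in control tissue against -0.18, 0.34 and 0.20 in cKO tissue. Its controls were the tightest of all 8 genes (SD 0.041), the cKO arrays lay on both sides of them, and the difference was 0.11 ± 0.22 (-0.36 to 0.58).

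Ambn, ameloblastin, had values of 0.32, 0 and -0.17 in control tissue against -0.26, -0.25 and -0.0032 in cKO tissue. Its difference was -0.22 ± 0.22 (-0.69 to 0.26). Enam, enamelin, had values of 0, -0.92 and 0.10 in control tissue against -0.44, -0.50 and -0.16 in cKO tissue. Control replicate 2 was its lowest array and widened the spread of the controls, and the difference was -0.09 ± 0.27 (-0.69 to 0.50).

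In order of difference, Csn1s1 came first by a wide gap, followed by Csn2, Amtn, Csn3, Enam, Ambn, Odam and Csn1s2a. The 7 after Csn1s1 spanned -0.42 to 0.16, which is less than the widths of their own intervals, so neighbours in that order did not differ beyond their spread. Of these 7, 3 were above 0 and 4 below, with a median of -0.09, beside a median of -0.004 over all genes. Over the 7 separate intervals the lowest bound was a ratio of 0.511 and the highest 1.59. The lower bound for Csn1s1, on whose difference the group was selected, was 13.8. In the limma fit 1 of the 8 passed an adjusted p of 0.05, against 1.94% of all genes (1.24% higher and 0.697% lower). The groups did not overlap in that same 1 of 8, against 19.4% of all genes (10.1% with the cKO higher and 9.25% with it lower). Because Csn1s1 was known from this contrast beforehand, nothing is read from either count. Under the methods' t-test over all genes no member was called.

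The promoters of the caseins are shown because those of Csn1s1, Csn2 and Csn1s2a share a sequence feature. RefSeq promoter windows of 300 bases (250 before to 50 after the start of the gene, build GRCm38.p6) were found for 7 members and not for Csn3. Capitals mark matches to the letters TTCNNNGAA, the palindromic core bound by STAT factors, searched on both strands. The 3 windows with such a match, 5′ to 3′ on the gene's strand, are those of Csn1s1 (chr5:87665958-87666257, plus strand), Csn2 (chr5:87699376-87699675, minus strand) and Csn1s2a (chr5:87774200-87774499, plus strand).
Csn1s1: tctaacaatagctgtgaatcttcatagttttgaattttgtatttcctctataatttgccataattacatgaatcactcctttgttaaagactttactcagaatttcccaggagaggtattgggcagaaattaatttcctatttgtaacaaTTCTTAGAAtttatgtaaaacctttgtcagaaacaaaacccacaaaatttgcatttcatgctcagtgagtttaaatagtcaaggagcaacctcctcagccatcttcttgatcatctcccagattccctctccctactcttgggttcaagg
Csn2: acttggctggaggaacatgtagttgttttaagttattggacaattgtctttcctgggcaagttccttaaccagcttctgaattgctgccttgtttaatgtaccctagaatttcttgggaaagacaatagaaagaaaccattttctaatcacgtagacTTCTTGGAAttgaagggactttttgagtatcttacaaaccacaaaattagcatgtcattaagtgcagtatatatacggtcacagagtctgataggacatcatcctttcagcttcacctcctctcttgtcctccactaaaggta
Csn1s2a: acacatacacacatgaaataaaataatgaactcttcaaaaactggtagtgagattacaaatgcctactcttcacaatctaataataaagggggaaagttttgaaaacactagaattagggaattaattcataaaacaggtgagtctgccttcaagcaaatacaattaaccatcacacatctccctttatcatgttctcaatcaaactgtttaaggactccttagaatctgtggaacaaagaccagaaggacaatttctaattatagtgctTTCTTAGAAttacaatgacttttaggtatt

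The match began at position -100 from the start of Csn1s1 and at -93 of Csn2, and in Csn1s2a it lay after the start, at 21. Csn1s1 and Csn1s2a held the same 9 letters, TTCTTAGAA, and Csn2 held TTCTTGGAA. None of the 3 overlapped a match to another motif searched. Such letters occurred in 8.3% of 32851 mouse promoter windows of the same length and in 3 of the 7 member windows, the 3 casein windows available. The log2 differences of the genes with a match were 4.53 for Csn1s1, 0.16 for Csn2 and -0.42 for Csn1s2a. Any part of the match in these differences was not tested. The letters CTTTGAA or CTTTGAT, forms of the core of TCF/LEF sites through which beta-catenin acts, were in the window of Ambn alone and in 8.65% of all windows. Other forms of this core were not searched. One of them, CTTTGTT, stands in the printed window of Csn1s1 and, on the opposite strand, in that of Csn1s2a. Absence of the searched letters is therefore not absence of such a core. The AP-1 letters TGANTCA were in those of Csn1s1 (at -182) and Odam (at -88) and in 7.81% of all. The C/EBP letters TTNNGNAA were in all 7 windows and in 40.68% of all. The exact TATA letters TATAAA were in that of Enam alone, at -137, and in 13.62% of all. Other forms of the TATA letters were not searched. A match describes letters and not a bound site.

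The genes between and beside the members were compared next, to see whether the difference at Csn1s1 extended along the chromosome. From 5 genes before Csn1s1 to 5 after Enam, the RefSeq gene order holds 28 other genes, of which 17 were measured. In limma 0 of the 17 were called in either direction (1 at an unadjusted p under 0.05, Gm7721), against 1.94% of all genes. At that share 17 genes may hold no call, so little is read from the 0. Differences of the 17 lay between -0.53 and 0.50 with a median of 0.09. On the side of Csn1s1 away from Csn2, the nearest measured gene, Sult1e1, an oestrogen sulfotransferase named for its position after its values were seen, had values of -0.09, 0.11 and 0 in control tissue against 0.02, 0.10 and 0.42 in cKO tissue (difference 0.17 ± 0.21, 95% interval on the ratio 0.820 to 1.55).

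Of the 10 measured genes lying between members, Csn1s2b, the remaining mouse casein, had values of 0.10, 0 and -0.45 in control tissue against -0.14, -0.30 and -0.39 in cKO tissue, a difference of -0.16 ± 0.22. The difference at Csn1s1, on which the group was selected, lay outside the interval of each of the other caseins, Csn2, Csn1s2a, Csn1s2b and Csn3. That is a description and not a test. Smr3a and Smr2, which encode secreted proteins of the submaxillary gland, differed by 0.38 and -0.29, and Prol1, a proline-rich secreted protein, by 0.50. Prr27 differed by 0.24, Cabs1, a calcium-binding protein of sperm, by 0.09, BC037156 by -0.17, BC051076 by 0.28 and the pseudogene Gm7337 by 0.01. Gm7721, also a pseudogene, had the most negative value of the window at -0.53 and an adjusted p of 0.385.

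**Figure D2:**
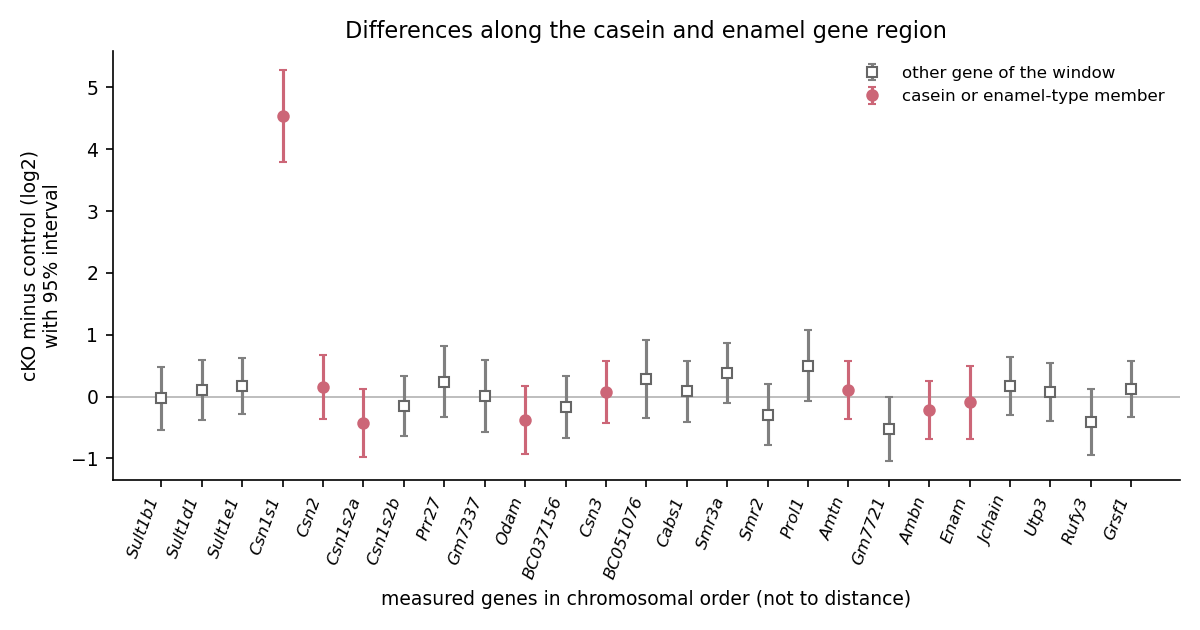
Log2 difference, cKO minus control, with its 95% interval (vertical axis) for the 8 members (filled red) and the 17 other measured genes of the window (open grey) in chromosomal order, not drawn to distance. Csn1s1 stands at 4.53, and all other genes of the window lie between -0.53 and 0.50.

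The genes whose 6 array values lay closest to those of Csn1s1 were sought over all genes by the root mean square distance of log2 values. They were Sprr2g, a small proline-rich protein of the cornified envelope (distance 0.41), Chil1, a chitinase-like protein (0.42), Lcn2, a siderophore-binding lipocalin (0.51), and S100a9 and S100a8, the subunits of calprotectin (0.56 and 0.60). The nearest member, Csn2, lay at a distance of 3.05. Sprr2g had values of -0.58, 0.09 and 0 in control tissue against 4.53, 3.16 and 4.76 in cKO tissue, so that cKO replicate 2 was the lowest cKO array, as for Csn1s1. In Chil1 (4.64, 3.96 and 4.39), Lcn2 (3.94, 3.34 and 4.82), S100a9 (5.06, 4.87 and 5.15) and S100a8 (5.05, 4.87 and 5.13) that array was again the lowest of the 3. The genes were selected for closeness over these same 6 values, so a shared order of arrays is partly fixed by the choice. Sprr2 genes are near-identical in sequence, so how much of the signal belongs to Sprr2g is uncertain. A search of this kind for Csn1s2a, the member with the second largest difference in size, was uninformative: 11603 genes lay within 0.5 of it, the nearest being Pdp1, Armcx5, Inpp4a, Phldb2 and Ercc5 at 0.08 to 0.11.

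**Figure D3:**
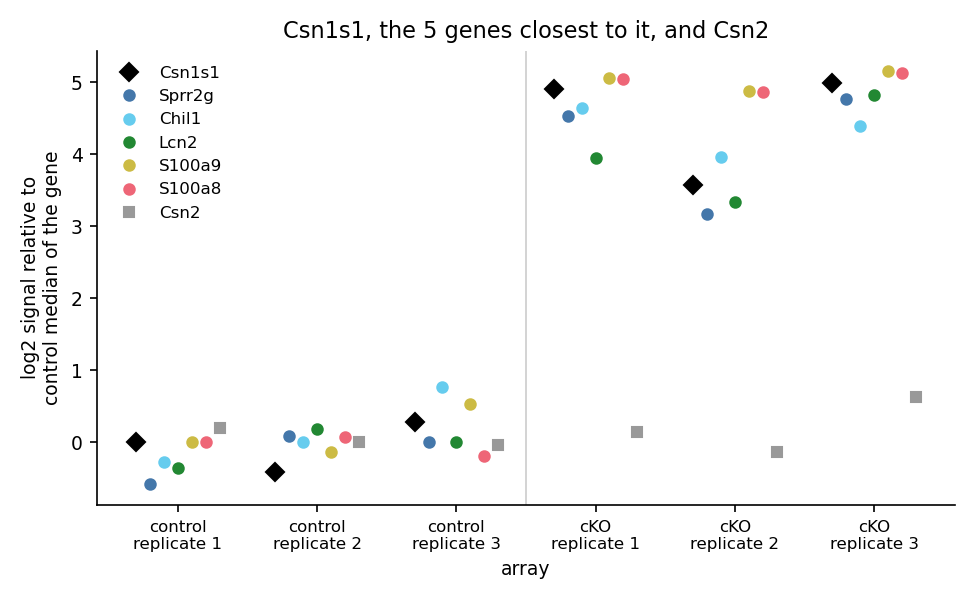
Log2 signal relative to the control median (vertical axis) on each of the 6 arrays for Csn1s1 (black diamonds), the 5 genes at the smallest distance from it (circles) and Csn2 (grey squares). On cKO replicate 2 Csn1s1 reads 3.57, between Sprr2g at 3.16 and S100a8 and S100a9 at 4.87, and Csn2 stays at -0.14.

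Genes of wounded or stressed epidermis moved with Csn1s1. The list was drawn up with their rise already known and is no independent evidence of its direction. Of 16 such genes 15 were called higher and Sprr1b (0.04) did not pass, against 1.24% of all genes called higher. The list had a median of 3.91 beside -0.004 for all genes. The list median was 0, 0.09 and 0 on control arrays against 3.85, 3.49 and 3.85 on cKO arrays. Defb3, a beta-defensin, was higher by 6.11 ± 0.36 (limma adjusted p 1.12e-06), S100a8 by 5.05 ± 0.21 (8.86e-08), S100a9 by 4.89 ± 0.23 (1.96e-07) and Sprr2d by 3.73 ± 0.21 (8.61e-07). The part of this epidermal state in the Csn1s1 difference was not tested.

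No milk protein gene outside the casein cluster was called. Of 10 genes of milk and mammary epithelium limma called 0 in either direction, against 1.94% of all genes. At that share a list this short may hold no call, so little is read from the 0. At an unadjusted p under 0.05 there were 4, a level at which all genes were not counted. The list median was -0.23. Wap, whey acidic protein, chosen after its values were seen, read 0.15, 0 and -0.12 in control tissue against 0.04, -0.12 and 0.64 in cKO tissue. Lalba, alpha-lactalbumin, likewise chosen, read 0.21, -0.27 and 0 against -0.33, -0.29 and -0.28. Each Lalba value in the cKO lay below the lowest control, by a small margin. Ltf, lactoferrin, also chosen after its values were seen, read 0.16, 0 and -0.24 against 0.42, 0.45 and 0.53, without overlap (0.49 ± 0.21, adjusted p 0.35). The members of smallest p were Olah, a thioesterase of fatty acid synthesis (-1.28 ± 0.35, adjusted p 0.1), and Glycam1, a mucin-like milk protein (-0.66 ± 0.22, adjusted p 0.209). Olah was called lower with array weights (0.0471), with the replicate block (0.0347) and without cKO replicate 2 (-1.67, adjusted p 0.0138).

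Of 16 known regulators of casein genes limma called 0, against 1.94% of all genes. At that share a list this short may hold no call, so little is read from the 0. At an unadjusted p under 0.05 there were 6, a level at which all genes were not counted. The list median was -0.07. Jak2, the kinase of the prolactin receptor, had values of 0, 0.02 and -0.17 in control tissue against 0.60, 0.81 and 0.65 in cKO tissue. Its groups did not overlap, the difference was 0.74 ± 0.21 with an adjusted p of 0.106, and it was called with array weights (0.0408). Cebpd, a C/EBP transcription factor, differed by 0.72 ± 0.24 (adjusted p 0.204). The prolactin receptor Prlr and Stat5a, both chosen after their values were seen, differed by -0.56 ± 0.24 and -0.36 ± 0.22 (adjusted p 0.355 and 0.567). These are transcript measures, and the activity of the kinase or of STAT proteins was not measured.

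Of 15 further genes of ameloblasts and enamel formation 0 were called (4 at an unadjusted p under 0.05), against 1.94% of all genes. Little is read from this 0 either, since a list this short may hold no call at that share. The list median was -0.005. Itgb6, an integrin subunit that wounded epidermis also expresses, had values of -0.32, 0 and 0.23 in control tissue against 0.86, 0.69 and 1.04 in cKO tissue. The difference of 0.89 ± 0.23 had an adjusted p of 0.0722. It was called with array weights (0.0297) and after a 20th-percentile filter applied here to the control-centred values (0.048). Cnnm4, a metal transporter, differed by 0.64 ± 0.22 (adjusted p 0.227).

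A further list held SCPP genes outside the group together with Sparc and Sparcl1, which are related to the family but not counted in it. Of its 9 measured genes 2 were called higher and 7 did not pass, against 1.24% of all genes called higher. The list median was 0.13. Ibsp, bone sialoprotein, read 0.51, 0 and -0.83 in control tissue against 2.68, 3.58 and 3.28 in cKO tissue, a rise of 3.29 ± 0.33 (adjusted p 0.000114). Spp1, osteopontin, read 0.14, 0 and -0.05 against 1.13, 1.28 and 1.06, a rise of 1.12 ± 0.20 (adjusted p 0.0108, and 0.0543 without control replicate 3). The 7 that did not pass were the acidic members Dmp1 (0.73, adjusted p 0.295), Mepe (-0.44, 0.54) and Dspp (0.13, 0.874), the proline- and glutamine-rich Amelx (-0.22) and Csn1s2b (-0.16), and Sparc (0.61) and Sparcl1 (-0.05). Scpppq1 was not analysed here. Osteoblast and osteocyte genes moved in the same arrays, with a median of 1.07. Of 11, 4 were called higher and 7 did not pass, against 1.24% of all genes called higher. Besides Ibsp those called were Ifitm5 (2.54 ± 0.27, adjusted p 0.000191), Alpl, alkaline phosphatase (1.41 ± 0.23, 0.00546), and Sp7, an osteoblast transcription factor (1.57 ± 0.28, 0.00876). The Sp7 call ended without control replicate 1 (0.0551) or cKO replicate 3 (0.0882). The list median was 0, 0 and -0.25 on control arrays against 0.69, 1.36 and 1.22 on cKO arrays. The part of bone tissue in these values was not tested.

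**Figure D4:**
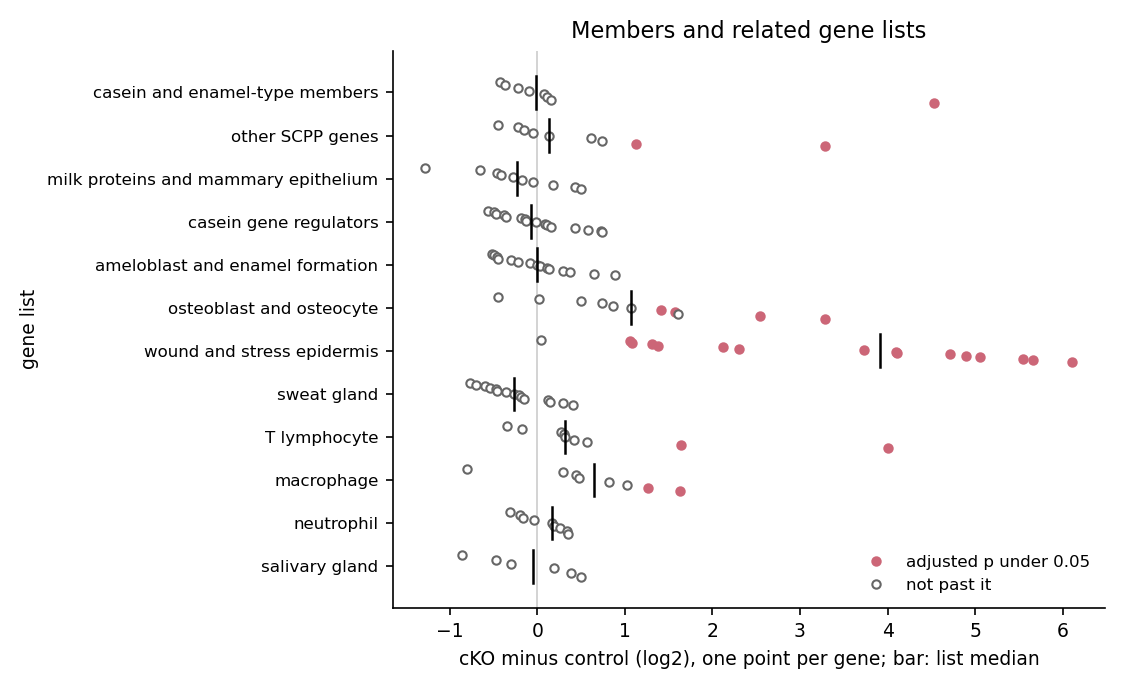
Log2 difference, cKO minus control (horizontal axis), with 1 point per gene, for the 8 members and 11 related gene lists (vertical axis), filled where the limma adjusted p was under 0.05, with a bar at each list's median. Csn1s1 is the single member away from 0, the milk, casein regulator and enamel lists hold no filled point, and the wound and stress list has its median at 3.91.

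Markers of sweat gland and of immune cells were examined because a digit tip can hold them, and a list of salivary gland genes was examined beside them. Limma called 0 of 15 sweat gland genes (3 at an unadjusted p under 0.05, median -0.26). It called 0 of 6 salivary gland genes (0 at an unadjusted p under 0.05, median -0.05), the 6 analysed of 10 listed. Among the 6, Smr3a, Smr2 and Prol1 are also neighbours described above, and Aqp5 is also in the sweat gland list. Limma also called 0 of 9 neutrophil genes (0 at an unadjusted p under 0.05, median 0.17). Over all genes 1.94% were called, a share at which lists this short may hold no call. The smallest p belonged to Edar (-0.70 ± 0.23, adjusted p 0.187) and Krt7 (-0.77 ± 0.32, 0.327) for sweat gland, to Aqp5 (-0.47 ± 0.23, 0.432) and Prol1 (0.50 ± 0.27, 0.489) for salivary gland, and to Ly6g (0.35 ± 0.23, 0.593) and Mpo (-0.31 ± 0.25, 0.681) for neutrophils. Of 9 T lymphocyte genes, Cd3g (4.0 ± 0.24, adjusted p 1.39e-06) and Cd3d (1.65 ± 0.27, 0.00562), chains of the T cell receptor complex, rose and 7 did not pass. Those 7 lay between -0.35 (Cd5) and 0.56 (Cd8a), and the list median was 0.32. Of 8 macrophage genes, the chemokine receptor gene Ccr2 (1.63 ± 0.25, 0.00324) and the lysozyme gene Lyz2 (1.27 ± 0.24, 0.0137) rose and 6 did not pass. Those 6 lay between -0.80 (Cd163) and 1.03 (Cd14), and the list median was 0.65. The Lyz2 call ended without control replicate 3 (0.0649) or cKO replicate 3 (0.1). Any part of these cells in the Csn1s1 difference was not tested. Over all the lists limma called 24 genes higher and 0 lower, while the methods' t-test over all genes called 4 higher, all in the wound and stress list, and 0 lower.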

How the data were processed

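The members and the gene lists were chosen with earlier results of these data known. According to the methods sheet deposited with the data, probe signals were summarised with PLIER and quantile-normalised by the authors, and the log2 values were centred per cluster on the control median; per the file headers, the array annotation was release na31 on build mm9. The deposited signed fold score and the deposited p-value columns came, per the file headers, from an unpaired t-test after a percentile filter (the 20th) and a 1.5-fold filter. The labels' protocols name a labelling kit for another array type.

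The series value table, which differed from the authors' workbook by at most 5e-05, was used for 28853 clusters. Of these 22971 carried 1 gene, and symbols were updated through Entrez identifiers with RefSeq's GRCm38.p6 table. The 2946 clusters with several genes and 2936 with none were left out, and clusters of a gene were averaged (1246 of 20793 genes had more than 1). The groups were tested in limma (version 3.58.1, under R version 4.3.3; lmFit, eBayes), cKO minus control, 3 against 3, without covariates, with Benjamini-Hochberg adjustment over 20793 genes and a threshold of 0.05. Intervals are 95% with 12.79 degrees of freedom. The fit was tested on simulated data. Named were the members, neighbours between them or called, per list up to 4 called genes of smallest p or else the 2 of smallest p, and for 2 members the 5 nearest genes. Outside this rule, Sult1e1, Sprr1b, Wap, Lalba, Ltf, Prlr, Stat5a, Cd5, Cd8a, Cd163 and Cd14 were named after their values were seen. So were the genes of the SCPP list that were not called. No set test was made, and the number of arrays limits the precision.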

Additional observations from a re-analysis of the deposited data

How the results depend on the processing

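As a description, the log2 difference of Csn1s1 lay between 4.29 and 4.99 over 15 alternatives. Several of them change only the test, the source of the same values or the genes fitted. They cannot move the difference of a gene on 1 cluster, and Csn1s1 stayed at 4.53 under them. The count of members called higher was 1, but 0 under the methods' t-test over all genes, and nothing is read from it because Csn1s1 was known from this contrast. No member was called lower, and no gene of the window around the members was called, under any of the 15. Csn1s2a, Odam and Ambn stayed below 0 in every alternative that fitted them. The other 4 members, Csn2, Csn3, Amtn and Enam, crossed 0 without a call. In one alternative a 20th-percentile filter, modelled on the authors', was applied to the control-centred values. It acted on values relative to control and not on signal, so it is not the authors' own filter. That filter removed Odam and Enam. Of all list genes together 24 were called higher, but 4 under the t-test. None was called lower, but 1 was (Olah) with array weights and with the replicate block, and 0 to 1 when single arrays were left out. In the t-test the calls of Ctnnb1 (0.258), Ibsp (0.169), Spp1 (0.0714), Defb3 (0.093) and the bone, T lymphocyte and macrophage genes named also ended. Over all genes 258 were higher and 145 lower, against 10 and 3 with the t-test and 523 and 305 with array weights. The counts were 357 and 218 with the replicate block, and 307 and 47 after the filter on control-centred values. They were 133 and 59 without cKO replicate 3. Without control replicate 1 or 3 the lower count was 75 or 81. The cause was not tested. Deviations of same-numbered arrays from their group means correlated at 0.0424, 0.138 and -0.0851 over genes, and those of differently numbered arrays at -0.187 to 0.138. Deviations from a mean of 3 arrays are tied to each other. These values therefore cannot decide whether the replicate numbers pair the arrays. Signal over background could not be judged from control-centred values.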
